A study of Mus musculus with 10 samples.

Results

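The oxytocin receptor (Oxtr), the G protein alpha subunits Gnaq and Gna11, the phospholipase C enzymes Plcb1 and Plcb4, the IP3 receptor Itpr1, the calcium channel subunit Cacna1c, and the calcium pump genes Atp2a2 and Atp2a3 with their inhibitor Pln were measured in sorted mammary epithelial cells. These 10 genes were chosen by name as steps of a single signalling route, and all 10 were found by NCBI Entrez identifier among the 24594 genes of the count table. The study compared luminal cells, the inner layer of the mammary duct, with basal cells, the outer layer, by RNA-seq of 5 libraries of each. All libraries came from wild-type C57BL/6J mice. The cells were freshly isolated from the virgin gland and sorted on the surface proteins EpCAM and CD49f, with no treatment and no transgene, and the labels give no age. Either sorted population can hold more than 1 cell state, since luminal progenitors and mature luminal cells were not separated.

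Oxytocin is released from the pituitary when the young suckle, and it makes the myoepithelial cells of the basal layer contract and push milk into the ducts. Its receptor activates G proteins of the q class, which switch on phospholipase C beta. That enzyme splits a membrane lipid into diacylglycerol and IP3, and IP3 opens IP3 receptors so that calcium leaves the endoplasmic reticulum. Voltage-gated channels in the plasma membrane can let in further calcium, and SERCA pumps return it to the store, with phospholamban, the product of Pln, acting as a brake on the pump.

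Library totals were 13203146 to 17565471 counts in luminal and 13676558 to 17998165 counts in basal libraries. In all 10 libraries the title gives the other cell type than the source name, the cell type label and the letter in the library description, which concur, and the cell type label was used for grouping. All 9 luminal markers examined, such as Krt8 and Prlr, were higher in the luminal libraries, and all 7 basal markers, such as Krt14 and Acta2, in the basal libraries (edgeR quasi-likelihood, adjusted p under 0.05). The summed level of the 7 basal markers was 36.7 to 113 CPM in luminal and 12238 to 16645 CPM in basal libraries. For the 9 luminal markers the sum was 8856 to 13056 CPM in luminal and 956 to 1437 CPM in basal libraries. The part of luminal cells in the basal levels of the members was not tested. CPM is the count scaled to library size with TMM factors, and replicates 1 to 5 of either group were read as the same 5 animals.

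The members divided between the cell types (edgeR quasi-likelihood, Benjamini-Hochberg adjustment over the 14609 genes tested). Of the 9 members tested, 4 were higher in basal cells (Oxtr, Cacna1c, Atp2a2 and Itpr1), 4 were higher in luminal cells (Atp2a3, Plcb4, Plcb1 and Gna11), and Gnaq had an adjusted p of 0.320. Pln was below the filter on low counts and was not tested. Over all genes tested, 64.8% had an adjusted p under 0.05, 31.2% higher in basal and 33.6% higher in luminal cells, so a call for a member was the common outcome. The libraries of the cell types did not overlap in 7 of the 9 members tested, as in 50.1% of all genes tested. The median log2 fold change, luminal minus basal, was 0.14 over the 9 members and 0.05 over all genes.

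**Figure D1:**
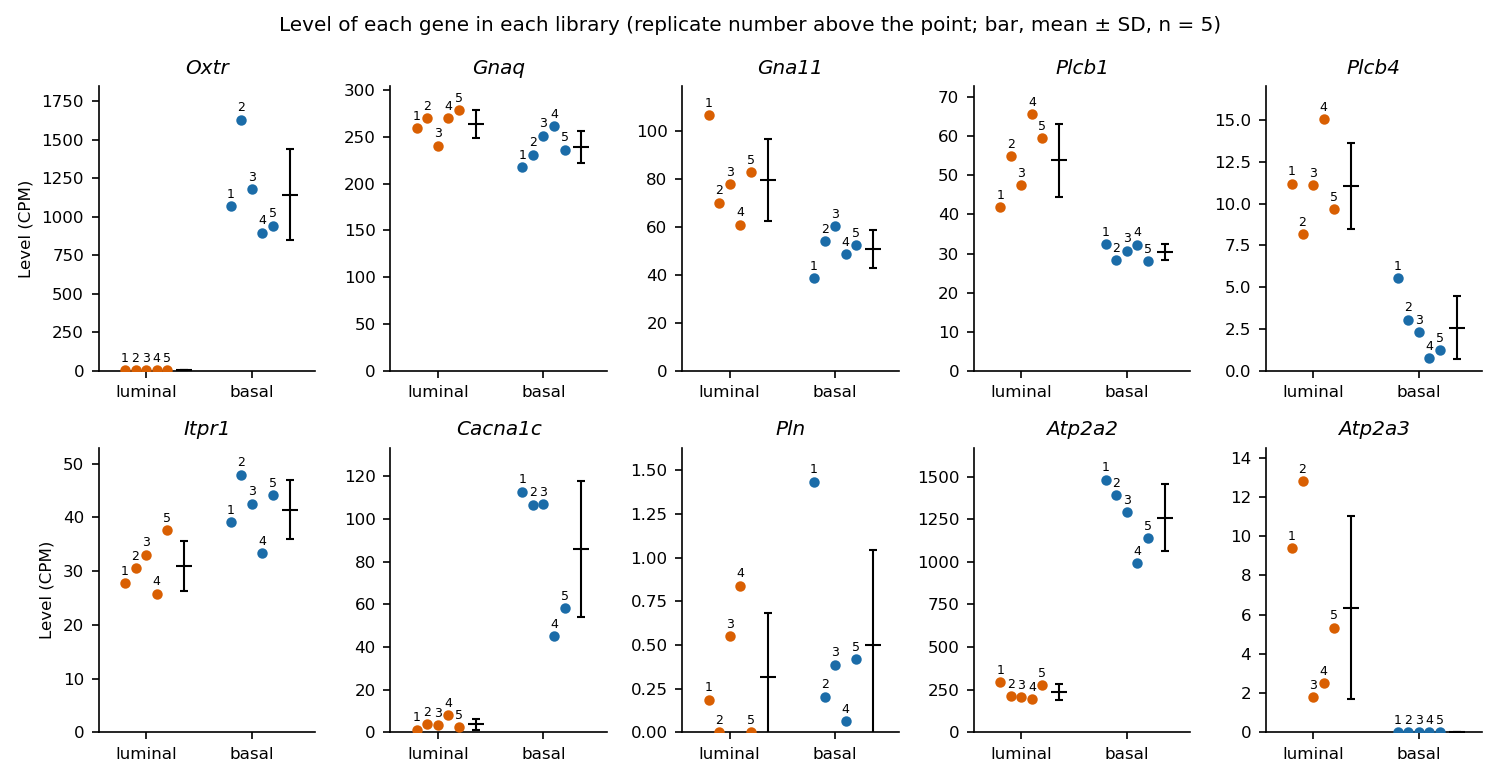
Level of each of the 10 genes in CPM in each library, with a separate vertical axis for each gene starting at 0. Points are libraries with their replicate number, and bars are the mean ± SD of 5 libraries. Oxtr, Cacna1c and Atp2a2 were high in basal libraries, Atp2a3 was at 0 in each of them, and Gnaq lay between 217 and 279 CPM in all 10 libraries.

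The receptor showed the largest difference toward basal cells among the members. Oxtr (Entrez 18430, GRCm38 chromosome 6, 112473683 to 112491035, minus strand) was at 1072, 1632, 1183, 899 and 943 CPM in basal replicates 1 to 5. In luminal replicates 1 to 5 it was at 5.13, 6.06, 5.64, 3.13 and 6.54 CPM, from 41 to 115 counts. Every basal library was thus far above every luminal library. The log2 fold change, luminal minus basal, was -7.75 (SE 0.28, 95% interval -8.35 to -7.15, adjusted p = 6.53e-11, edgeR), a difference of 215-fold. Only 83 of the 14609 genes tested had a more negative value. The luminal mean was 0.463% of the basal mean, while the basal markers in single luminal libraries had a median of 0.219% to 0.731% of their basal means. In bulk samples, fewer cells of a type and less RNA per cell cannot be told apart. The counts do not tell a low level in luminal cells from a few basal cells in the luminal gate, and their part in the luminal Oxtr counts was not tested.

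Oxtr also varied among basal libraries, with replicate 2 at 1.82 times the level of replicate 4. Genes whose profile over the 10 libraries was most like that of Oxtr were sought by the root mean square difference of log2(CPM + 0.5), each gene centred on its own mean. The 5 nearest were Trp63 (0.28), which encodes the p63 regulator of the basal lineage, Rcn3 (0.34), a calcium-binding protein of the endoplasmic reticulum, Irx4 (0.35), a homeobox factor, Nipal4 (0.40) and Igfbp4 (0.46), a binding protein of insulin-like growth factors. Of the other members, Cacna1c stood at place 294 and Atp2a2 at place 909 of 14608 in this order. Since the cell types differ so much, the measure mostly ranks genes by the size of their basal excess.

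Promoter sequences were taken from RefSeq (GRCm38.p6, 250 bases before to 50 after each start) and matched 8 of the 10 members, all but Itpr1 and Atp2a2, with 11 promoters. Those of Oxtr, Cacna1c and Atp2a3 are printed because these genes had the largest differences in either direction. For Cacna1c, which has 3 promoters in RefSeq, the one with motif matches is given. Both strands were searched for 5 motifs, the CArG box bound by SRF, the AP-1 motif TGANTCA, the TEAD motif GGAATG, the TATA box TATAAA and the GC box GGGCGG. Capitals mark matches, which in these 3 promoters were all GC boxes, some of them overlapping.
Oxtr promoter (chr6:112489776-112490075, minus strand): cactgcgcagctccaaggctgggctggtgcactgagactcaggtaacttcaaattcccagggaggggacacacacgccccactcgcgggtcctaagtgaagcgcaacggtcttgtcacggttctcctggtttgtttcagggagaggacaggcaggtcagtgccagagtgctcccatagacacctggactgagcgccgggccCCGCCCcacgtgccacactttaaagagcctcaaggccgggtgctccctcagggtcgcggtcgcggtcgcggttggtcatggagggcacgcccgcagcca
Cacna1c promoter (chr6:119108446-119108745, minus strand): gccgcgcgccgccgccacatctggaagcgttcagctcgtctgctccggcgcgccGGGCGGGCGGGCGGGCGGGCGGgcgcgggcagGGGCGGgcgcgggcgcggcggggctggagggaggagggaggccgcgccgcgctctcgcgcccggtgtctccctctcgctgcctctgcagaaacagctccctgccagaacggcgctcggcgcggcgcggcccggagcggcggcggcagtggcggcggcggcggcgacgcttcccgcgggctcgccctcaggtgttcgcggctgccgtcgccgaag
Atp2a3 promoter (chr11:72960919-72961218, plus strand): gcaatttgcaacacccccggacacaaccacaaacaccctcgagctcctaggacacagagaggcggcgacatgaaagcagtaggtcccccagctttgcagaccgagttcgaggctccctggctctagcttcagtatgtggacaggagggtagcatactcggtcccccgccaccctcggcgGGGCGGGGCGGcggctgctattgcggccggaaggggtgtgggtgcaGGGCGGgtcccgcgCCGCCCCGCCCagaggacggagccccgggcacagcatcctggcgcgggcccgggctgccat

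The Oxtr promoter held a GC box on the opposite strand that begins at position -49 from the start. The printed Cacna1c promoter held 6 between -196 and -164, and the Atp2a3 promoter held 5 from -71 onward. Their GC contents were 63.7%, 81.3% and 68.3%, against a median of 52.7% over all 32851 RefSeq promoters, of which 35.7% held a GC box. The printed Cacna1c promoter was picked for its matches, and the other promoters of this gene held none and had 51.3% GC each. None of the 11 member promoters held a CArG box or AP-1 motif in these letters, motifs found in 1.63% and 7.81% of all promoters. A TEAD motif was present in the promoter of Gna11 at -166 and in a promoter of Plcb4 at -213 (14.7% of all promoters), and a TATA box in that of Pln at -219 (13.6%). A match is a description of letters within this window only. The GC box was shared by genes high in basal cells and genes high in luminal cells.

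Of the G protein subunits downstream of the receptor, Gnaq did not pass the test and Gna11 was 1.57-fold higher in luminal cells. Gnaq (chromosome 19, 16132684 to 16388520) was at 259, 270, 240, 270 and 279 CPM in luminal and 217, 231, 251, 261 and 236 CPM in basal replicates 1 to 5. The groups overlapped, and the log2 fold change came to 0.14 (SE 0.12, 95% interval -0.12 to 0.39, adjusted p = 0.320, edgeR), with luminal higher in 4 of 5 same-numbered pairs. With library totals in place of TMM factors the value was 0.32 with an adjusted p of 0.0310. Gna11 (chromosome 10, 81528724 to 81545162), the close relative of Gnaq that couples to the same receptors, was at 106, 70.1, 77.7, 60.9 and 82.7 CPM in luminal and 38.5, 54.0, 60.3, 48.5 and 52.3 CPM in basal replicates. The groups came close to each other, with luminal replicate 4 barely above basal replicate 3. The difference was 0.65 on the log2 scale (SE 0.17, adjusted p = 0.00353, edgeR), higher in luminal in 5 of 5 pairs.

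Ratios within a library, in which its total cancels, were compared for 5 pairs of members with an exact permutation test over the 10 libraries (two-sided, smallest possible p 0.00794, adjusted over the 5 pairs). This test does not use the pairing of libraries by animal. In the paired form, an exact sign-flip test, the smallest possible p is 0.0625, so that no pair could pass 0.05. The ratios rest on the same counts as the fold changes and are no separate support for them. The log2 ratio of Gnaq to Gna11 counts was 1.75 ± 0.33 (SD, n = 5) in luminal and 2.25 ± 0.20 (SD, n = 5) in basal libraries, a difference of -0.50 (exact p = 0.0238, adjusted p = 0.0298). Gna14, a further q class subunit of narrower distribution, was at 44.4 ± 17.3 CPM (SD, n = 5) in luminal cells, against 1.38 ± 0.96 CPM (SD, n = 5) in basal cells (log2 fold change 4.99, adjusted p = 7.19e-08, edgeR). Per kilobase of the longest transcript, Gnaq made up 55.4% ± 5.76 (SD, n = 5) of the 4 q class subunits in luminal and 70.4% ± 2.86 (SD, n = 5) in basal libraries. The share of Gna14 was 11.4% to 21.9% in luminal and at most 1.41% in basal libraries. The q class in luminal cells was thus spread over 3 genes, while in basal cells it was mainly Gnaq and Gna11. Gna15, the remaining member of the class, was at 2.88 ± 0.78 CPM in luminal and 5.39 ± 2.61 CPM in basal cells (SD, n = 5), with an adjusted p of 0.0434 that was lost in 11 of 18 alternatives.

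Both phospholipase C beta members were higher in luminal cells. Plcb1 (chromosome 2, 134786164 to 135475258) was at 41.9, 54.8, 47.5, 65.6 and 59.5 CPM in luminal and 32.5, 28.2, 30.7, 32.3 and 28.1 CPM in basal replicates 1 to 5. No basal library reached the luminal range, and the log2 fold change came to 0.83 (SE 0.14, adjusted p = 0.000179, edgeR). Plcb4 (chromosome 2, 135658603 to 136014602) was at 11.2, 8.16, 11.1, 15.04 and 9.64 CPM in luminal and 5.55, 3.07, 2.32, 0.75 and 1.26 CPM in basal replicates. Its basal counts were 12 to 89, with replicate 1 at 7.40 times the level of replicate 4, and the log2 fold change came to 2.09 (SE 0.42, adjusted p = 0.000574, edgeR). The log2 ratio of Plcb1 to Plcb4 was 2.29 ± 0.36 (SD, n = 5) in luminal and 3.78 ± 1.05 (SD, n = 5) in basal libraries (exact permutation p = 0.0238, adjusted p = 0.0298). Without luminal replicate 1 the exact p was 0.0556. The most abundant gene of this family per kilobase was neither member but Plcb3, at 71.4% ± 5.12 (SD, n = 5) of the family in luminal and 77.3% ± 3.81 (SD, n = 5) in basal libraries. Plcb3 was also higher in luminal cells, by 0.56 on the log2 scale (SE 0.13, adjusted p = 0.00182, edgeR), and Plcb2 had a mean of at most 0.0368 CPM in either group and was not tested.

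The IP3 receptor member went the other way from its paralogs. Itpr1 (chromosome 6, 108213083 to 108551116), the form best known from Purkinje neurons and smooth muscle, was at 39.2, 48.0, 42.6, 33.4 and 44.1 CPM in basal and 27.8, 30.5, 33.1, 25.8 and 37.6 CPM in luminal replicates 1 to 5. The groups overlapped, although basal was higher in 5 of 5 pairs, and the log2 fold change came to -0.42 (SE 0.15, 95% interval -0.74 to -0.10, adjusted p = 0.0231, edgeR). The call was lost with upper-quartile factors (-0.30, adjusted p = 0.0932) and with library totals (-0.23, adjusted p = 0.236). It was also lost without luminal replicate 1 or 2 or basal replicate 2 or 5, with adjusted p between 0.0502 and 0.0574. Itpr2 and Itpr3 were both higher in luminal cells, by 0.88 (SE 0.19, adjusted p = 0.000895) and 1.52 (SE 0.18, adjusted p = 4.88e-06) on the log2 scale (edgeR). Per kilobase, Itpr1 was 10.1% ± 2.50 (SD, n = 5) of the 3 receptors in luminal and 26.4% ± 2.79 (SD, n = 5) in basal libraries, and these ranges did not overlap. By summed exon length its shares were lower, at 6.09% ± 1.64 (SD, n = 5) in luminal and 17.4% ± 2.02 (SD, n = 5) in basal libraries. Itpr3 led in both, at 63.5% ± 7.99 (SD, n = 5) in luminal and 44.9% ± 1.64 (SD, n = 5) in basal libraries. The 3 receptors together stood at 32.0 ± 6.12 CPM per kilobase (SD, n = 5) in luminal and 15.9 ± 1.56 CPM per kilobase (SD, n = 5) in basal cells.

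**Figure D2:**
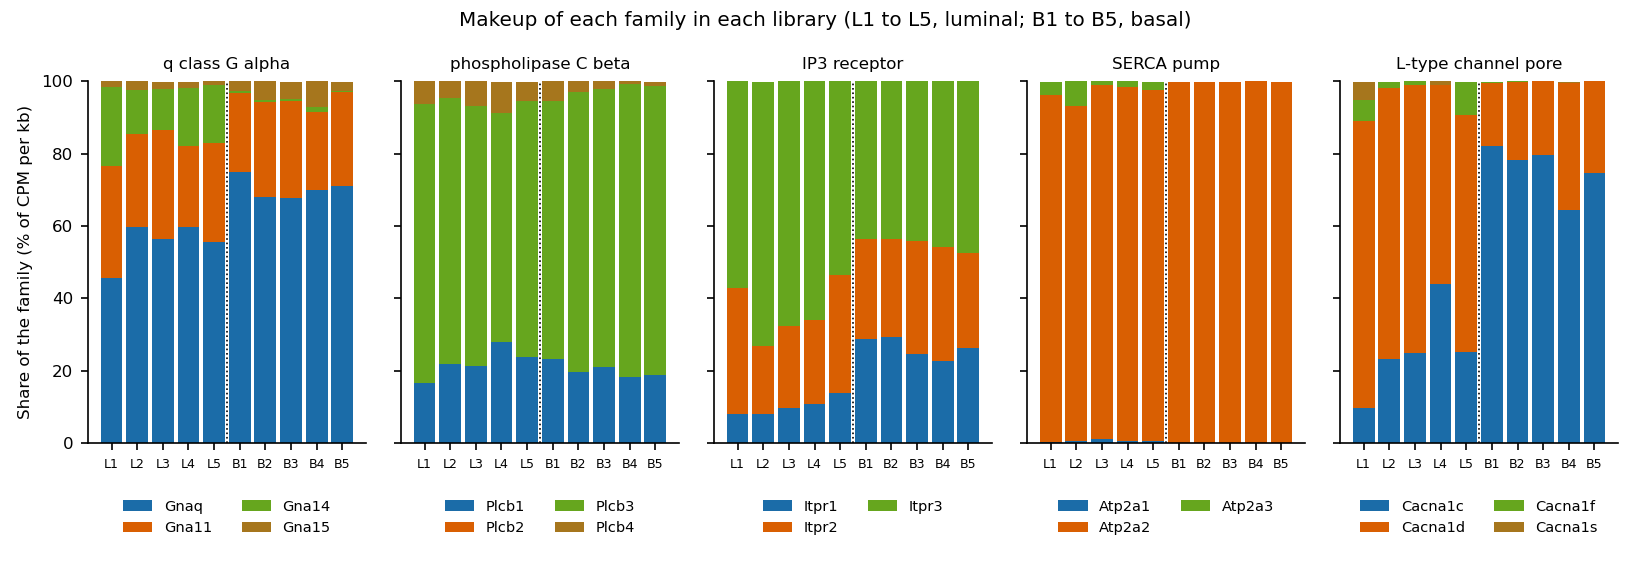
Share of each gene in the summed level of its family, in percent of CPM per kilobase of the longest transcript, for luminal (L1 to L5) and basal (B1 to B5) libraries. Itpr1 took a larger share of the IP3 receptors in basal libraries (22.8% to 29.4%) than in luminal libraries (7.96% to 14.0%), and the leading L-type channel gene was Cacna1c in each basal and Cacna1d in each luminal library.

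The calcium entry member differed by more than the calcium release member, with intervals that did not overlap. Cacna1c (chromosome 6, 118587240 to 119197384, minus strand), the pore-forming subunit of the L-type channel of heart and smooth muscle, was at 113, 107, 107, 45.2 and 58.1 CPM in basal replicates 1 to 5. In luminal replicates it was at 1.25, 4.003, 3.25, 8.02 and 2.41 CPM, so that the groups were far apart although both were uneven. The log2 fold change came to -4.52 (SE 0.43, 95% interval -5.43 to -3.61, adjusted p = 4.22e-07, edgeR), a difference of 22.9-fold. Luminal libraries held 1.45% to 9.32% of the basal mean of Cacna1c, and their median over 7 basal markers was 0.219% to 0.731% of the basal means, with 1.57% as the highest value of a single marker. The part of basal cells in the luminal level of Cacna1c was not tested. Cacna1d, the L-type pore subunit known from sinoatrial and endocrine cells, was also higher in basal cells, at 18.3 ± 2.59 CPM against 7.19 ± 1.73 CPM (SD, n = 5, log2 fold change -1.34, adjusted p = 5.41e-05, edgeR). Per kilobase, Cacna1c was 75.9% ± 6.92 (SD, n = 5) of the L-type pore subunits in basal libraries, and Cacna1d was 69.8% ± 9.69 (SD, n = 5) in luminal libraries.

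Basal replicates 4 and 5 held the lowest basal levels of Oxtr, Cacna1c and Atp2a2, and also of Plcb4, a member higher in luminal cells. The summed basal markers were also lowest there, at 13574 and 12238 CPM against 15870 to 16645 CPM in the other 3 basal libraries. The part of this in the members' levels was not tested. These libraries were not both the lowest for Gnaq, Gna11, Plcb1 or Itpr1, and basal replicate 4 held the highest basal level of Gnaq.

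Of the SERCA pumps, which refill the store, Atp2a2 was abundant in both cell types and higher in basal cells. Atp2a2 (chromosome 5, 122453513 to 122502225, minus strand), the pump of heart, smooth muscle and most other tissues, was at 1482, 1393, 1290, 990 and 1137 CPM in basal and 294, 212, 206, 193 and 279 CPM in luminal replicates 1 to 5. No luminal library came near the basal range, and the log2 fold change came to -2.41 (SE 0.18, adjusted p = 4.45e-08, edgeR), a difference of 5.32-fold. Atp2a3 (chromosome 11, 72961169 to 72993043), the pump known from blood cells, endothelium and some epithelia, had 0 counts in each of the 5 basal libraries. In luminal replicates 1 to 5 it had 150, 243, 29, 33 and 84 counts, or 9.38, 12.8, 1.78, 2.52 and 5.33 CPM. The luminal mean of Atp2a3 was at least 32.1-fold higher, taking 3 counts in each basal library as the limit that a count of 0 allows (adjusted p = 2.40e-05, edgeR). This bound holds for the mean only and not for each luminal library, of which the lowest was at 1.78 CPM. Luminal replicates 1 and 2 were the highest, and the luminal range was 7.195-fold.

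Markers of immune and endothelial cells, in which Atp2a3 is also known, are given beside it. The study's sort also used antibodies against the lineage proteins TER-119, CD31 and CD45, which mark red blood cells, endothelium and leukocytes. Of 8 immune markers, Cd52 and Lyz2 were higher in luminal cells, Cd74 and Csf1r were higher in basal cells (edgeR, adjusted p under 0.05), Ptprc, the gene of CD45, reached at most 0.381 CPM in luminal libraries, and Cd3e and Cd79a were at 3 counts or fewer in every library. Cd52 was at 4.65 ± 2.04 CPM in luminal and 1.13 ± 1.13 CPM in basal cells (SD, n = 5), and Lyz2 at 1.31 ± 0.46 and 0.395 ± 0.298 CPM (SD, n = 5). The summed immune markers were at 15.95 to 22.2 CPM in luminal and 26.5 to 53.2 CPM in basal libraries. The 8 endothelial markers summed to 69.4 to 117 CPM in luminal and 10.9 to 20.6 CPM in basal libraries, of which Vwf was 66.2 to 112 CPM in luminal libraries. Pecam1, the gene of CD31, and Tek were not called and reached 3.93 and 3.97 CPM in luminal libraries, Cdh5 and Cldn5 were higher in basal cells, and Cdh5, Kdr, Tie1, Emcn and Cldn5 were each at most 0.491 CPM in luminal libraries. In luminal replicates 1 and 2, where Atp2a3 was highest, the immune sums were 15.95 and 17.6 CPM and the endothelial sums 117 and 69.4 CPM, the highest and the lowest luminal values. The part of such cells in the Atp2a3 counts was not tested.

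Atp2a3 was a small part of the SERCA pumps even where it was detected. Per kilobase it was 1.04% to 6.88% of the family in luminal libraries, and Atp2a2 was 96.3% ± 2.18 (SD, n = 5). In basal libraries Atp2a2 was 99.9% ± 0.047 (SD, n = 5). The family as a whole stood at 43.3 ± 8.44 CPM per kilobase (SD, n = 5) in luminal and 222 ± 34.8 CPM per kilobase (SD, n = 5) in basal cells. The log2 ratio of Atp2a2 to Atp2a3 counts was 5.52 ± 1.06 (SD, n = 5) in luminal and 13.2 ± 0.23 (SD, n = 5) in basal libraries (exact permutation p = 0.00794, the smallest possible, adjusted p = 0.0198), where the basal value rests on the 2 counts added to each gene. Atp2a1, the pump of fast skeletal muscle, was below 1 CPM on average in both groups.

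Pln, the SERCA inhibitor, was hardly detected. Pln (chromosome 10, 53337686 to 53345999) had 3, 0, 9, 11 and 0 counts in luminal and 23, 3, 5, 1 and 7 counts in basal replicates 1 to 5. These came to 39 basal and 23 luminal counts in all. The groups overlapped in part, with basal replicate 1 above every luminal library and luminal replicates 2 and 5 below every basal one. Without the filter on low counts its log2 fold change was -0.76 (SE 1.04, adjusted p = 0.568, edgeR), and no difference was detected. In the annotation 1644 of its 2759 exon bases are shared with Gm47644 and 141 with Cep85l, both on the opposite strand. The library kit does not mark strand, and the strand setting used in counting is not stated. In the shared bases, reads of these genes thus cannot be told apart from those of Pln. Cep85l was at 115 ± 34.1 CPM (SD, n = 5) in luminal cells, against 59.5 ± 7.23 CPM (SD, n = 5) in basal cells.

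Release, brake and reuptake were also compared within libraries. The log2 ratio of Itpr1 to Atp2a2 was -2.92 ± 0.29 (SD, n = 5) in luminal and -4.92 ± 0.20 (SD, n = 5) in basal libraries, a difference of 1.99 (exact permutation p = 0.00794, the smallest possible, adjusted p = 0.0198). All 5 basal libraries thus held more Atp2a2 counts for each Itpr1 count than any luminal library. This restates the log2 fold changes given above, -0.42 for Itpr1 and -2.41 for Atp2a2, and is no separate result. The log2 ratio of Pln to Atp2a2 was -9.56 ± 1.58 (SD, n = 5) in luminal and -11.3 ± 0.96 (SD, n = 5) in basal libraries and did not pass the test (difference 1.74, exact permutation p = 0.0635). It rests on 0 to 23 Pln counts a library.

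**Figure D3:**
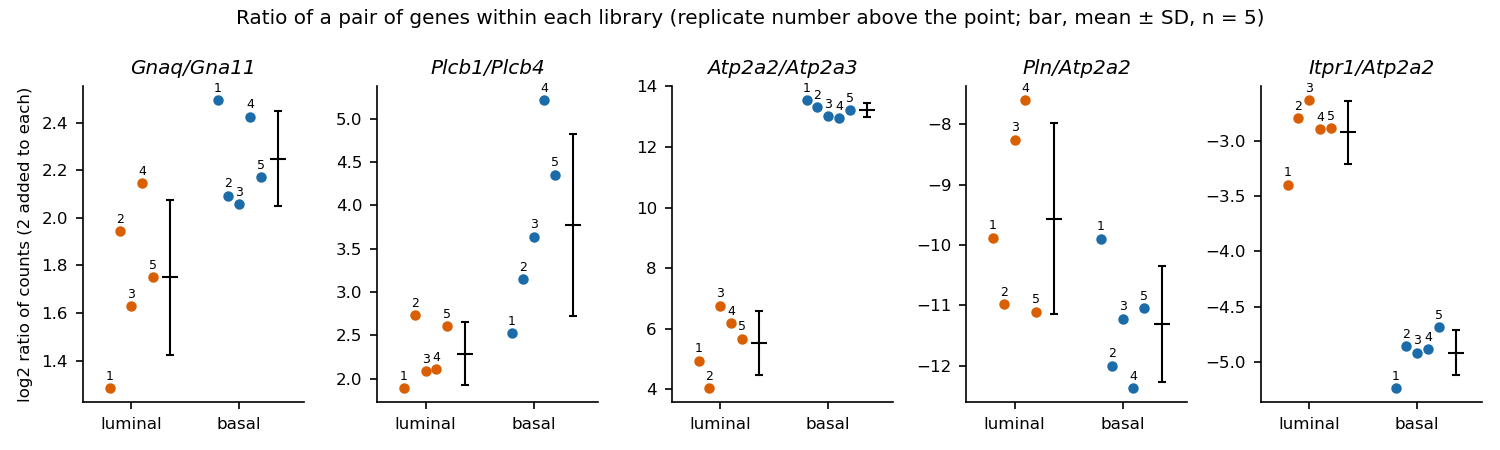
log2 ratio of the counts of 5 pairs of genes within each library, with 2 counts added to each gene. Points are libraries with their replicate number and bars are the mean ± SD of 5 libraries. The ratios of Atp2a2 to Atp2a3 and of Itpr1 to Atp2a2 separated luminal from basal libraries completely, those of the other 3 pairs did not.

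The 10 members differed widely in level, which is given here per kilobase of the longest transcript. The study describes alignment with Bowtie2, which does not place reads across splice junctions, the members have from 4 (Oxtr) to 86 (Itpr1) distinct annotated exons, and the effect on levels between genes was not tested. In basal cells the order was led by Oxtr at 244 ± 62.5 and Atp2a2 at 222 ± 34.7 CPM per kilobase (SD, n = 5), whose ranges overlapped. They held places 228 and 248 among the 14285 tested genes with a known length. Gnaq followed at 42.4 ± 3.04 and Gna11 at 14.9 ± 2.36, each apart from its neighbours. Cacna1c (6.53 ± 2.41), Plcb1 (4.22 ± 0.29) and Itpr1 (4.198 ± 0.56) were next, and Cacna1c overlapped with Plcb1 and Plcb1 with Itpr1. Plcb4 and Pln were below 1 CPM per kilobase, and Atp2a3 was at 0. Per kilobase of coding sequence, Oxtr (984 ± 252.5) stood apart from Atp2a2 (402 ± 63.0) and Plcb1 from Itpr1, and Pln came before Plcb4.

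In luminal cells Gnaq (46.7 ± 2.60 CPM per kilobase, SD, n = 5) and Atp2a2 (41.7 ± 8.10) led and overlapped, followed by Gna11 (23.3 ± 5.02) and Plcb1 (7.48 ± 1.30), each apart from the next. Itpr1 (3.14 ± 0.47), Plcb4 (2.11 ± 0.49), Atp2a3 (1.38 ± 1.01) and Oxtr (1.13 ± 0.28) formed a series in which each overlapped with the next. Cacna1c was at 0.288 ± 0.196 and overlapped with Pln at 0.135 ± 0.158. Oxtr held place 1 of 10 in basal and place 8 in luminal cells, or place 5 in luminal cells with coding length, by which it was at 4.55 ± 1.13 and overlapped with Itpr1 (3.75 ± 0.56). With coding length Gnaq (245 ± 13.6) also stood apart from Atp2a2 (75.6 ± 14.7), which overlapped with Gna11 (73.9 ± 15.9), and Pln came before Cacna1c.

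**Figure D4:**
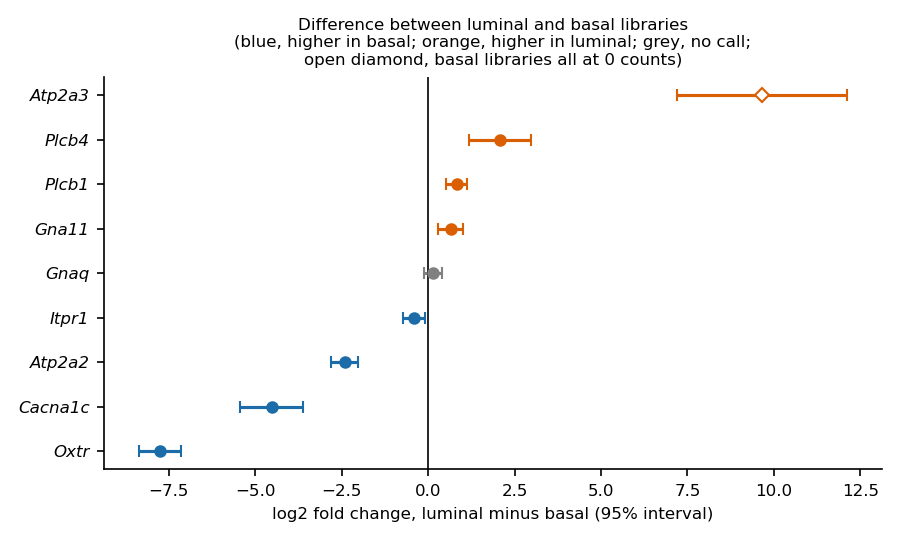
log2 fold change, luminal minus basal, of the 9 tested genes with its 95% interval (edgeR). Values ran from -7.75 for Oxtr to 9.64 for Atp2a3, where the open diamond marks a fitted value that is no bound because the basal libraries had 0 counts, and the next highest was Plcb4 at 2.09.

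The rest of the pathway was described with 16 lists of 153 genes, of which 151 were in the table and 116 were tested. Of the 116, 56 (48.3%) were higher in basal cells, 30 (25.9%) were higher in luminal cells and 30 had no call (edgeR, adjusted p under 0.05), against 31.2% and 33.6% over all genes, the shares beside which each list below is to be read. Their median log2 fold change was -0.42. The lists were chosen with earlier results of these data known, so these shares describe the listed genes only. With library totals in place of TMM factors, 46 of the 116 were higher in basal and 35 in luminal cells. Over all 14609 genes tested, that scaling gave 3705 higher in basal and 5705 higher in luminal cells. The calls of Gna15, Plcd1, Ahcyl1, Ryr1, Cacnb1, Orai3 and Dgkd, all toward basal cells and named here after their values were seen, were each lost under 2 of 3 other scalings. Of the calls toward luminal cells, those of Camk1d, Dgka and Pde1c held under these scalings and were lost in 4, 5 and 6 of 18 alternatives. The ligand genes Oxt and Avp had 0 counts in all libraries, and the vasopressin receptors Avpr1a, Avpr1b and Avpr2, relatives of Oxtr, had means below 1 CPM and were not tested.

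Regulators of the receptor and its G protein went both ways. Of 5 RGS genes tested, whose products speed the shut-off of G proteins, 3 were higher in basal cells, 1 in luminal cells, and Rgs2 had an adjusted p of 0.0663. Rgs4 was at 63.1 ± 27.2 CPM in basal and 0.230 ± 0.180 CPM in luminal cells (SD, n = 5, log2 fold change -8.02, adjusted p = 3.68e-09), and Rgs3 was at 28.3 ± 10.1 CPM in luminal and 2.86 ± 0.47 CPM in basal cells (SD, n = 5, log2 fold change 3.30, adjusted p = 5.24e-08). Rgs5, known from pericytes, was at 21.7 ± 4.81 CPM in basal and at most 0.797 CPM in luminal libraries (log2 fold change -7.00, adjusted p = 5.93e-07). Of 8 genes of receptor kinases and arrestins, which desensitize receptors, and of oxytocinase, which breaks down oxytocin, 3 were higher in luminal cells and 2 in basal cells, led by Grk3 (log2 fold change 1.89, adjusted p = 2.52e-07) and Grk6 (-0.94, adjusted p = 0.000426). Among 4 G protein beta subunits, 2 were higher in luminal cells, with Gnb5 at a log2 fold change of 1.74 (adjusted p = 2.59e-06).

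Pericytes and vascular smooth muscle also express several of these genes, so their markers are given beside them. Of 10 such markers, 7 were tested, 6 were higher in basal cells and 1 (Notch3) in luminal cells, and Higd1b had 0 counts in all libraries. The summed level was 76.5 to 137 CPM in basal and 97.9 to 271 CPM in luminal libraries, of which Notch3 alone was 94.9 to 268 CPM. Of the 6, Ndufa4l2 was at 46.1, Rgs5 at 21.7, Des at 12.5, Pdgfrb at 9.84, Cspg4 at 2.61 and Kcnj8 at 2.32 CPM on average in basal cells. The part of pericytes in the basal levels of Rgs5, Oxtr and Cacna1c was not tested.

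All 8 of the other phospholipases C tested were called, 5 higher in basal and 3 higher in luminal cells, where 64.8% of all genes were called, and the call of Plcd1 was lost in 4 of 18 alternatives. Plcg2, an enzyme downstream of immune and growth factor receptors, was at 45.9 ± 5.83 CPM in luminal and 2.55 ± 0.54 CPM in basal cells (SD, n = 5, log2 fold change 4.17, adjusted p = 3.72e-10, edgeR). Plch2 was at 146 ± 34.3 CPM in basal and 20.01 ± 7.76 CPM in luminal cells (SD, n = 5, log2 fold change -2.87, adjusted p = 9.48e-07). Among 11 IP3 receptor paralogs, regulators and IP3 kinases, 5 were higher in basal and 4 in luminal cells. Mrvi1 (also Irag1), through which cyclic GMP-dependent kinase inhibits IP3 receptors, had the most negative value at -6.78 (adjusted p = 1.16e-08), and was at 26.4 ± 8.07 CPM in basal and 0.219 ± 0.229 CPM in luminal cells (SD, n = 5).

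Jph2 had the most negative log2 fold change of the 16 lists. The product of Jph2 holds the plasma membrane close to the store in muscle, and its level was 281 ± 63.7 CPM in basal and 0.556 ± 0.564 CPM in luminal cells (SD, n = 5, log2 fold change -8.99, adjusted p = 9.46e-10, edgeR). Of the 9 genes of ryanodine receptors and their partners, 4 were higher in basal cells and 1 in luminal cells, which was Ryr3 at 31.4 ± 4.45 CPM in luminal and 18.5 ± 2.82 CPM in basal cells (SD, n = 5, log2 fold change 0.76, adjusted p = 0.000759). Of 6 skeletal muscle markers 3 were tested, and Acta1 (94.0 CPM in basal and 1.02 CPM in luminal cells) and Ryr1 (0.762 and 0.258 CPM, adjusted p = 0.039, edgeR) were higher in basal cells. Mylpf had no call and was at 0.313 to 1.12 CPM in basal libraries, Ckm had at most 7 counts in a basal library, and Myh4 and Tnnt3 had 0 counts in all of them. Of 9 voltage-gated channel subunits, 4 were higher in either cell type, and the extremes were Cacna1g (log2 fold change -6.79, adjusted p = 3.49e-08), the pore of a T-type channel, and Cacnb3 (1.37, adjusted p = 2.39e-06), an auxiliary subunit.

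Genes of store-operated and receptor-operated entry were divided as 5 higher in basal and 3 higher in luminal cells of 9 tested. The extremes were the TRP channels Trpc1 (log2 fold change -4.43, adjusted p = 4.65e-08, edgeR) and Trpc6 (6.13, adjusted p = 1.00e-08). Of 7 calcium-binding proteins of the endoplasmic reticulum, 5 were higher in basal and 0 in luminal cells, against 31.2% and 33.6% of all genes. The lowest value, -2.91 (adjusted p = 0.00133), belonged to Casq2, a buffer of the muscle store that reached only 2.02 ± 0.60 CPM (SD, n = 5) in basal cells. Of 5 calcium export genes, 3 were higher in basal cells, with the exchanger Slc8a1 at -3.90 (adjusted p = 0.000182). The mitochondrial exchanger Slc8b1 was higher in luminal cells (2.59, adjusted p = 6.69e-08).

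Targets of calcium and diacylglycerol closed the route. Of 12 calmodulin and kinase genes, 7 were higher in basal and 2 in luminal cells. Mylk, the myosin light chain kinase that starts smooth muscle contraction, was at 700 ± 167 CPM in basal and 2.20 ± 0.90 CPM in luminal cells (SD, n = 5, log2 fold change -8.33, adjusted p = 1.40e-10, edgeR). Camk2b was at 1314 ± 914 CPM in luminal and 14.9 ± 8.20 CPM in basal cells (SD, n = 5, log2 fold change 6.47, adjusted p = 1.64e-07), a level that varied widely between luminal libraries. Of 15 genes of the diacylglycerol arm, 6 were higher in basal and 4 in luminal cells, with Prkcq (-2.25, adjusted p = 0.0029) and Prkch (1.58, adjusted p = 3.39e-06), both protein kinase C genes, at the extremes.

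Of 9 genes of the cyclic GMP arm, which opposes contraction in smooth muscle, 6 were higher in basal and 1 in luminal cells, so that 7 of 9 had a call, against 64.8% of all genes (31.2% toward basal and 33.6% toward luminal cells). Npr1, the natriuretic peptide receptor that makes cyclic GMP, was at 47.5 ± 8.28 CPM in basal and 0.709 ± 0.608 CPM in luminal cells (SD, n = 5, log2 fold change -6.10, adjusted p = 2.24e-08, edgeR). Pde1c was the gene higher in luminal cells (0.79, adjusted p = 0.0314).

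**Figure D5:**
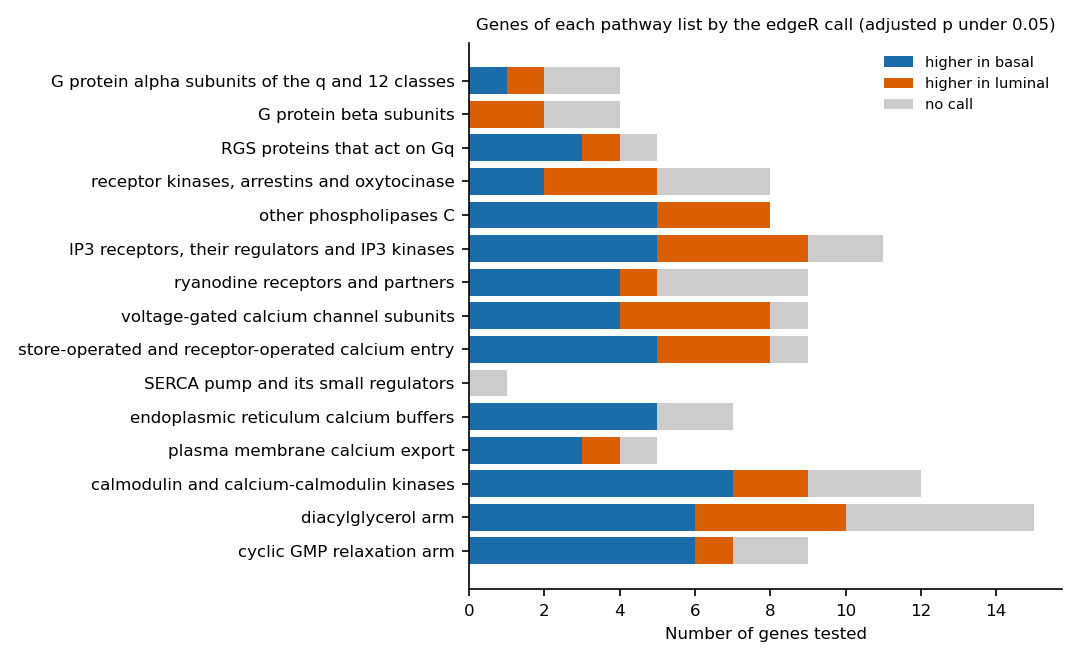
Number of tested genes of each pathway list that were higher in basal cells, higher in luminal cells or had no call (edgeR, adjusted p under 0.05); members themselves are not in the lists. The 116 genes divide into 56, 30 and 30, and the list of ligands is left out because none of its genes was tested.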

How the data were processed

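RNA was measured in 5 luminal and 5 basal libraries of sorted mammary epithelial cells. The values deposited by the authors are whole, unnormalized read counts for each gene, with 1 column per library. The submitters' processing notes name cutadapt 4.2 and Bowtie2 2.3.5.1 and the builds mm10 and hg19. The study's methods describe poly(A) selection, single-end reads and mm10 with default settings, and fewer replicates than here, and it was taken that these steps apply here. The counting tool, annotation and strand setting are not given in the sources used here. The library kit does not mark strand.

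A RefSeq gene table (GRCm38.p6) gave symbols for 24570 of 24594 genes and none for 24. Transcript lengths are from GENCODE M21 (longest transcript; summed exon and coding lengths as alternatives) and were known for 97.8% of the genes tested. Genes were filtered with filterByExpr (minimum count 10, minimum total 15), which left 14609 and dropped 9985. TMM factors and edgeR's quasi-likelihood test (edgeR 4.0.16, R 4.3.3, cell type as the only term, two-sided, Benjamini-Hochberg adjustment) gave log2 fold changes as luminal minus basal. Ratios of members were compared by exact permutation over 252 splits. Scripts were tested on simulated data. The p-values measure the spread between libraries, read here as animals.

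The members and the lists were chosen with earlier results of these data known. Named genes were chiefly the members, their close paralogs, and in each list the gene with the most positive and the one with the most negative log2 fold change among those with an adjusted p under 0.05 and the same direction in all 5 pairs. Others were named outside this rule, among them Rgs2, Rgs5, markers of cell types and genes whose calls were lost in alternatives. Replicate numbers come from the titles, and libraries of the same number begin their description with the same number, taken as the animal. Deviations from the group means correlated at -0.134 to 0.252 within a number (mean 0.0442) and at -0.00718 on average between numbers. Alternatives were DESeq2 size factors, upper-quartile factors, library totals, no filter, at least 10 counts in every library, DESeq2 1.42.0, limma 3.58.1 (voom), the replicate block, other added counts (0.5), other lengths, and each library left out.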

Additional observations from a re-analysis of the deposited data

Results flagged for a closer look

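Pln in basal replicate 1 stood at 1.43 CPM, from 23 counts, while the other 4 basal libraries lay between 0.0625 and 0.42 CPM. Its gap to the nearest of them, divided by the range of the group, was above the critical value of Dixon's test for 5 samples (0.71). It was the only such value among 19 groups of member levels examined, where chance gives 0.95. The overlapping genes Gm47644 and Cep85l lie on the opposite strand, and their part in this value was not tested.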

How the results depend on the processing

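Of 161 alternative values of the members' log2 fold changes, 154 kept their direction and their side of the threshold, 6 lost a call, all of Itpr1, 1 gained a call (Gnaq with library totals), and 0 changed direction. Across alternatives 3 or 4 members were higher in basal cells and 3 to 5 in luminal cells, and Atp2a3 could not be fitted with at least 10 counts in every library. Library totals moved the median log2 fold change of all genes by 0.19 and upper-quartile factors by 0.12, which bears on members near 0, Gnaq and Itpr1. With the replicate number as a block, no member changed its call in edgeR, and of all genes 4740 had higher levels in luminal and 4539 in basal cells. In the paired form of the ratio test (replicate block, exact sign-flip over 5 pairs) the smallest possible p is 0.0625, and the differences of -0.50 for Gnaq to Gna11, -1.49 for Plcb1 to Plcb4, -7.69 for Atp2a2 to Atp2a3 and 1.99 for Itpr1 to Atp2a2 all had that p. No ratio thus passed 0.05 in the paired form, which could not give a lower p. With 0.5 in place of 2 counts added, the Atp2a2 to Atp2a3 difference was -9.65, since basal Atp2a3 counts were 0. With libraries left out in turn, the Plcb1 to Plcb4 difference ranged from -1.80 to -1.13 and missed the threshold without luminal replicate 1 (exact p = 0.0556). The Pln to Atp2a2 difference ranged from 1.25 to 2.13 and passed it before adjustment without luminal replicate 5 (2.13, exact p = 0.0397) or basal replicate 1 (2.09, exact p = 0.0476). With other lengths the leading gene of each family by mean share remained the first in both cell types. Cacna1c nevertheless reached 51.4% of the L-type pore subunits in a luminal library with coding length. The share of Itpr1 with summed exon length was 6.09% in luminal and 17.4% in basal cells. Coding length changed the order of the members by level, with Oxtr at place 5 in place of 8 in luminal cells, and summed exon length changed neither the order nor which neighbours overlapped. Counts were low for Pln, at 0 to 23 a library, and for Plcb4 in basal libraries, at 12 to 89. The part of depth in their spread between libraries was not tested.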
